A study of Mus musculus with 48 samples.

Results

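The replication-dependent histone genes encode the core histones H2A, H2B, H3 and H4 and the linker histone H1 that package newly made DNA. They were taken as every gene whose symbol begins with Hist1, Hist2, Hist3 or Hist4, the names of the 4 mouse histone gene clusters. This gave 70 of 34590 genes in the count files, of which 56 belong to Hist1, 10 to Hist2, 3 to Hist3 and 1 to Hist4. By protein class they are 6 H1, 20 H2A, 19 H2B, 12 H3 and 13 H4 genes. Of the 69 that matched a RefSeq gene, RefSeq lists 66 as protein coding, and Hist1h2aj, Hist1h2al and Hist3h2bb-ps as pseudogenes.

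Most of these genes are transcribed as cells copy their DNA, and their RNAs end in a stem-loop in place of a poly(A) tail. The stem-loop binding protein Slbp holds that loop, and the U7 snRNP cuts the transcript just after it. Some members also yield polyadenylated RNA in cells that have stopped dividing, and a few are known from the testis. Libraries of total RNA, as here, can hold RNAs without a tail, which a poly(A) selection would leave behind.

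The 48 libraries, in 13 groups, are from mouse cells that model Group 3 medulloblastoma, a cerebellar tumor of children with high Myc. Per the labels, cells carrying extra Myc were transduced with retroviral vectors, sorted for red or green fluorescence, expanded in culture and placed in Matrigel in the cortex of CD-1 nu/nu mice, which lack T cells. The genotype of 44 libraries is p53-/-;p18-/-, controls included. Set 1 held lines 19251, 19554 and 19568, each with 3 Ezh2 KO libraries, in which Cas9 was directed at the Polycomb gene Ezh2, and 3 Cas9 control libraries. Set 2 held line 19568 alone, with 3 libraries each of the rescue (Ezh2 KO + Ezh2 OE), Ezh2 KO, Ezh2 OE (overexpression) and Cas9. Line 19251 also had 8 libraries with the transcriptional repressor Gfi1 overexpressed (Gfi1 OE) and 6 control libraries. A further 4 carry the label WT GNP Myc Gfi1 (for short, labelled WT GNP), from granule neural precursors of wild-type mice. The labels do not say whether a line is 1 clone or whether replicates are separate animals, so p-values measure only the spread between these libraries, which may be technical.

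Each library held 2687637 to 94733131 counts on genes, with a median of 29416561. Levels are given as CPM, counts scaled to the library's total on genes. Ezh2 RNA in set 1 averaged 62.0 CPM in Ezh2 KO and 64.5 CPM in Cas9 of line 19251 (80.4 CPM without Cas9 replicate 1), 74.1 and 75.2 CPM in line 19554, and 43.7 and 74.5 CPM in line 19568. Whether Cas9 cuts broke the reading frame cannot be read from counts per gene. Gfi1 measured 107 to 592 CPM in Gfi1 OE and 0 to 0.273 CPM in its controls, but 0.232 to 0.829 CPM in the libraries labelled WT GNP, which goes against their label. In set 2, Ezh2 was at 101 CPM in the library labelled rescue replicate 3 and at 5128 CPM in that labelled Cas9 replicate 1. Both have a title number that contradicts their file number, and both were left out of the fits.

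A pair of libraries stood apart in the histone genes. In Cas9 replicate 1 of line 19251 the 70 genes made up 0.0577% of counts, and Myc measured 9.91 CPM, genes of DNA replication summed to 189 CPM, and marker genes of cortical neurons and astrocytes summed to 2284 and 3975 CPM. In Gfi1 OE replicate 5, 71.6% of reads were unaligned and H1 genes made up 33.8% of histone counts. In the other 46 libraries the genes of DNA replication (37 genes of S phase) summed to 3060 to 4766 CPM, Myc measured 123 CPM or more, and H1 made up 14.1% to 20.4% of histone counts. Where results rest on either library, they are also given without it. Both libraries were set apart partly by histone values, so p-values of histone genes without them follow that choice. In bulk RNA, fewer cells in S phase and less histone RNA per cell cannot be told apart.

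The 3′ stem-loop was found in the annotated transcripts of 45 of the 70 genes in GENCODE vM21 (GRCm38). It was found in 4 of 6 H1, 11 of 20 H2A, 9 of 19 H2B, 9 of 12 H3 and 12 of 13 H4 genes. The longest annotated transcript of each gene was searched, so a loop past its annotated end would be missed. In genes without a loop this transcript held from 312 bases (Hist1h4k) to 2620 (Hist2h2be), with 381 in Hist2h2bb. The shares by class therefore depend on the annotation. Of 8 different stem-loop sequences, 7 are shown by 11 members whose values are given below or that carry a rare form. Each is written as DNA, 5′ to 3′, with the 16-base stem-loop in capitals and 5 flanking bases on either side in lower case.
Hist1h1c: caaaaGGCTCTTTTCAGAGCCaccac
Hist1h1e: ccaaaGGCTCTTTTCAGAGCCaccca
Hist2h3c1: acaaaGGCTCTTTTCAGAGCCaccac
Hist3h2ba: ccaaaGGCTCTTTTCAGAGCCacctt
Hist1h2bb: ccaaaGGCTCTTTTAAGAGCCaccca
Hist2h2ac: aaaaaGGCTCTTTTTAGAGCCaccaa
Hist1h3g: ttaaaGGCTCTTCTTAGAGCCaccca
Hist1h4d: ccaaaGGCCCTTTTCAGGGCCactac
Hist4h4: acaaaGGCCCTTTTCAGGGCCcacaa
Hist2h4: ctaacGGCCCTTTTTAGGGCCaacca
Hist1h4b: caaaaGGTCCTTTTCAGGACCactca

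The commonest form, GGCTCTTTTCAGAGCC, was shared by 25 members, of which 3 encode H1, 10 H2A, 7 H2B and 5 H3. No H4 gene had it. The 12 H4 genes with a stem-loop used 4 forms that no other class used: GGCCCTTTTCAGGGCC in 7 members, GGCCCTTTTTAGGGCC and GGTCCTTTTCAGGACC in 2 members each, and GGCCCTTCTCAGGGCC in 1. The form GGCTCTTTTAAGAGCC was held by 6 members, and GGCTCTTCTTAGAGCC and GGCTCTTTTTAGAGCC by 1 member each. In 23 members the annotated transcript ran on for more than 100 bases past the loop.

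Promoter sequence was given by RefSeq (GRCm38.p6) for 60 members, from 250 bases before to 50 after the start. The letters CCAAT, bound by the factor NF-Y, stood on either strand in 51 of them (85%), against 37.4% of all 32851 promoters. Every matched H1, H2A, H2B and H3 promoter held CCAAT, and 3 of 12 H4 promoters did. TATAAA stood in 35 (58.3%, against 13.6% of all promoters). ATTTGCAT, the octamer bound by Oct1, stood in 13 (21.7%, against 1.74%), of which 7 are among 17 H2A and 6 among 15 H2B promoters. AAACACA, known from H1 promoters, stood in 9 (15%, against 7.18%), of which 5 are among the 6 H1 promoters. AAATCAC, a stretch of the Gfi1 site, stood in 2 (3.33%, against 3.2%), and shorter or variant forms of that site were not counted. None of these motifs contains another. A match is a description and no evidence of binding. The promoters of 3 members called lower in Gfi1 OE follow (Hist1h1a was called only without replicate 5), 5′ to 3′ on the gene's strand, with CCAAT on either strand, the TATA box letters and the octamer in capitals. Hist2h2bb lies at chr3:96269450-96269749, Hist2h3b beside it at chr3:96268404-96268703 and Hist1h1a at chr13:23763418-23763717, all on the plus strand.
Hist2h2bb: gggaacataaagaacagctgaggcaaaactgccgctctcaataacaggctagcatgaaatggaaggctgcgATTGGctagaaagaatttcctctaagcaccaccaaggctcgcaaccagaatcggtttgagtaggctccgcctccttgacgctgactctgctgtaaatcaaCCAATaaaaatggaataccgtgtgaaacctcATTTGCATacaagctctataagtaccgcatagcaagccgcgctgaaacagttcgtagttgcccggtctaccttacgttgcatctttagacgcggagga
Hist2h3b: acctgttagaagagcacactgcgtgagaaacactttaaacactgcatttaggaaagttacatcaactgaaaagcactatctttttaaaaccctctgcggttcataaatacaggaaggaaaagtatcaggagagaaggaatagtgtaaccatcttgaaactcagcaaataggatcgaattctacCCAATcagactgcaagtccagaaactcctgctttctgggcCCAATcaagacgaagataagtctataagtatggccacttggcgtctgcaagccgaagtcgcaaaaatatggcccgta
Hist1h1a: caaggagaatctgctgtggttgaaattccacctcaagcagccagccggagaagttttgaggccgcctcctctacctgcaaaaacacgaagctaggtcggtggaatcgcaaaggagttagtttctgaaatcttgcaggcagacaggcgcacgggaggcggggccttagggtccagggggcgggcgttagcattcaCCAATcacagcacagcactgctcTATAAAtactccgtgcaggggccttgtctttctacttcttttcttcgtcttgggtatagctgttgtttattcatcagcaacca

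Histone RNA was abundant and spread over many genes. Of the 70 members, 68 had a count in all 48 libraries, and 65 averaged 10 CPM or more. Hist1 genes held 88.0% of histone counts on average, Hist2 genes 10.5%, Hist3 genes 0.563% and Hist4h4 0.876%. By class the means were 17.7% for H1, 15.9% for H2A, 24.8% for H2B, 18.7% for H3 and 22.9% for H4. The 16 members with the highest mean level held 47.1% of histone counts.

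The 8 highest members were H1, H2B and H4 genes. Levels below are means over 48 libraries with the range of the 46 libraries that did not stand apart. Hist2h2bb, an H2B gene, averaged 633 CPM (295 to 1408). The H1 genes Hist1h1e (H1.4), Hist1h1c (H1.2) and Hist1h1d (H1.3) averaged 604 CPM (364 to 1007), 546 CPM (309 to 832) and 428 CPM (220.1 to 605). Hist1h1a (H1.1) averaged 391 CPM with a wider range, 77.6 to 874. The H4 genes Hist1h4d and Hist1h4h averaged 503 CPM (304 to 841) and 406 CPM (249 to 689), and the H2B gene Hist1h2bb averaged 352 CPM (204 to 598). Per kilobase of transcript, Hist2h2bb led with a mean of 1661 CPM, followed by Hist1h4h with 863, Hist1h2bb with 692, Hist1h4k with 646 and Hist1h4f with 637. The length used was that of the longest annotated transcript, such as 381 bases for Hist2h2bb and 7425 for Hist1h1d. The order per kilobase therefore depends on the annotation. The remaining somatic H1 gene, Hist1h1b (H1.5), averaged 307 CPM.

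Members known for polyadenylated RNA, among them Hist1h1c, were measured at very different levels. Hist1h2bc averaged 207 CPM, Hist2h2aa2 189 CPM and Hist4h4 107 CPM. Hist2h2be averaged 11.2 CPM and Hist3h2a 8.15 CPM. Hist2h2be encodes H2BE, an H2B variant described in mouse olfactory neurons. The testis genes were near the bottom, with means of 2.43 CPM for Hist1h2ba, 0.566 CPM for Hist1h1t and 0.0704 CPM for Hist1h2aa.

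Shared sequence limits what a count means for part of the family. Of the 70 genes, 17 had at least 90% of their 100-base words unique among the GENCODE transcripts of counted genes, 26 had 50% to 90%, 21 had 10% to 50% and 6 had less. Hist2h2bb, Hist2h2be, Hist2h4, Hist1h1a, Hist1h1b and Hist1h4d were fully unique. The H3 genes Hist2h3b, Hist2h3c1 and Hist2h3c2 were unique over 22.9%, 67.1% and 38.4%, and Hist1h2bf, Hist1h2af and Hist1h2bl over 53.6%, 34.7% and 37.9%, so reads among close copies may be divided by the authors' counting. Every such word of Hist2h2aa2 is also in Hist2h2aa1, which had 1 count in 1 library.

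Over the 46 libraries the members varied by similar amounts, with few exceptions. The SD of log2(CPM + 1) had a median of 0.437 and lay between 0.25 and 0.75 for 63 members. It was above 0.75 for 5 members: 1.98 for Hist3h2ba, 1.15 for Hist3h2bb-ps, 0.977 for Hist1h2bf, 0.816 for Hist1h1a and 0.809 for Hist1h2al. Hist3h2ba, an H2B gene, ranged from 0.175 to 126 CPM. It measured 2.01, 34.8 and 2.39 CPM in Ezh2 KO of line 19554 and 1.07, 12.6 and 0.175 CPM in its Cas9, so replicates of 1 group differed widely.

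**Figure D1:**
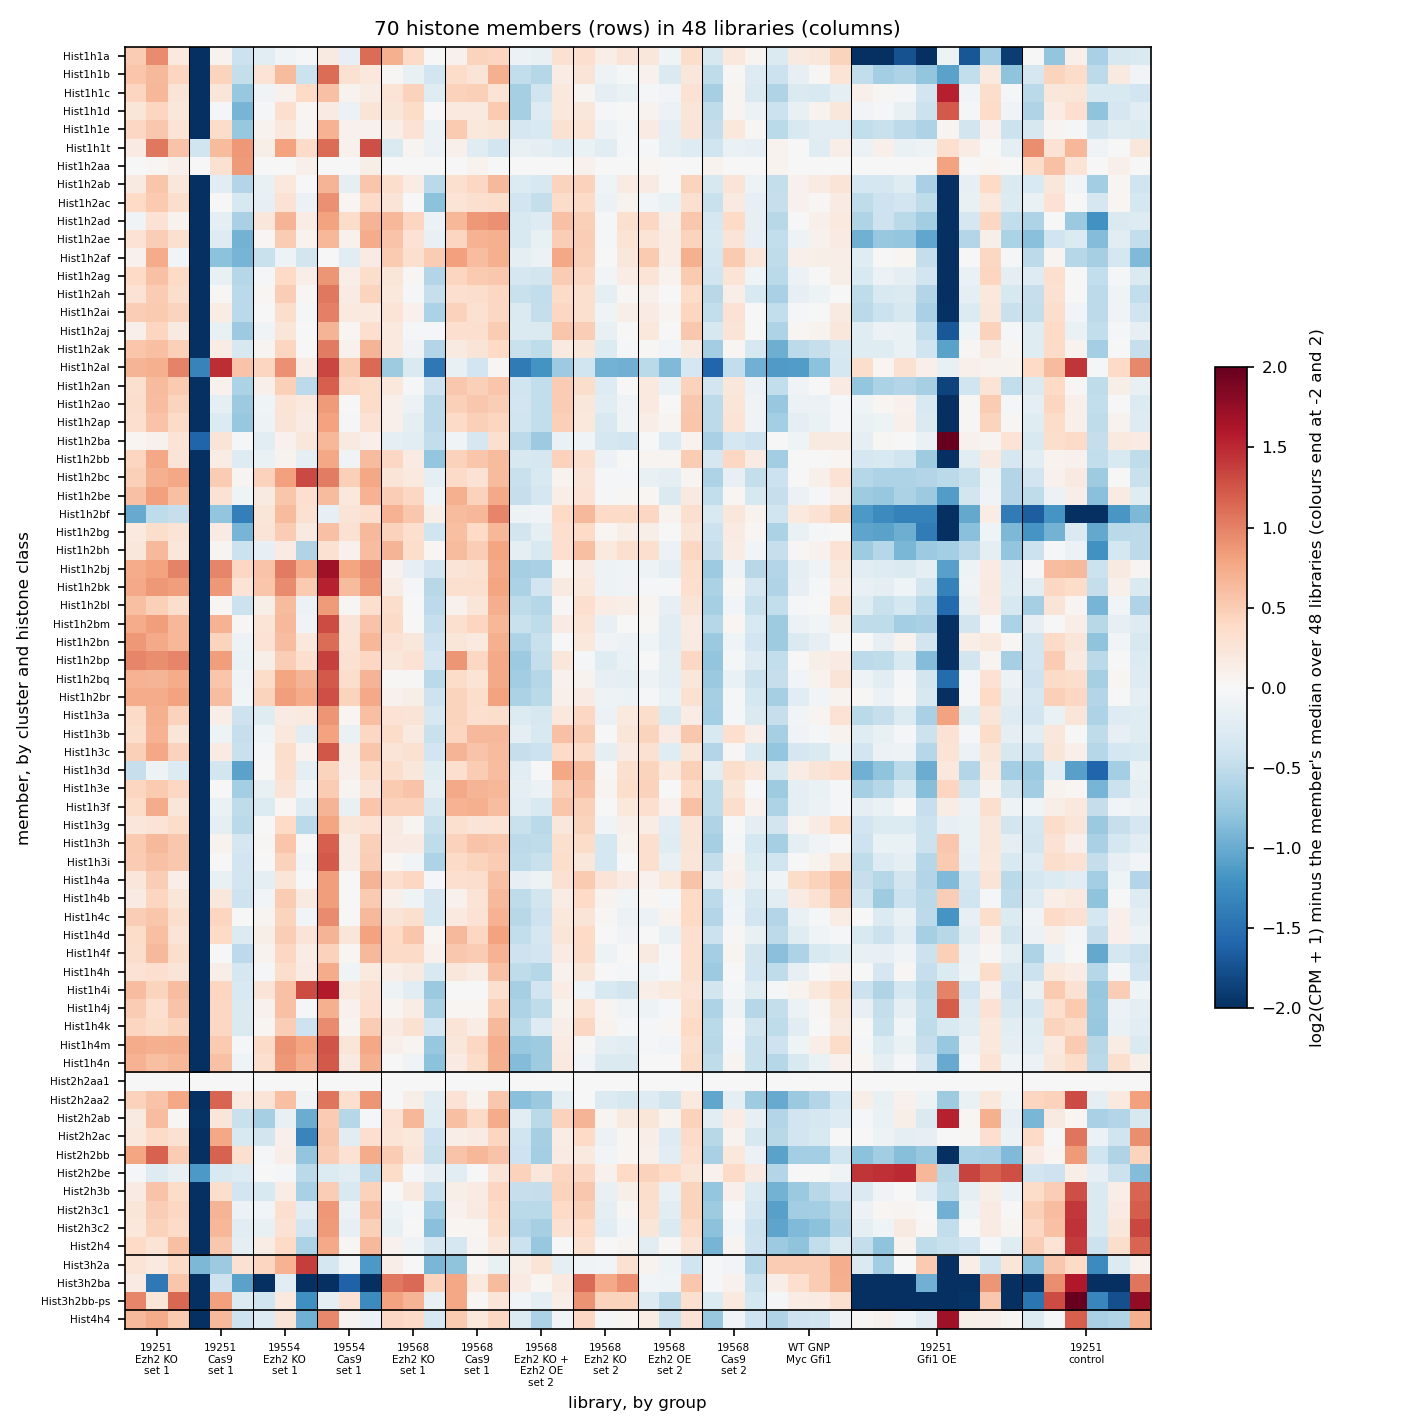
Heat map of the 70 histone genes (rows, by cluster) in the 48 libraries (columns, by group), colored by level. Cas9 replicate 1 of line 19251 is a column of low values, and Hist3h2ba, which ranged from 0.175 to 126 CPM in the other libraries, is the row with the strongest contrasts.

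The family as a whole took between 0.842% and 2.26% of gene counts in the 46 libraries, a 2.68-fold range, against a 1.56-fold range of the summed S-phase genes. The ratio of summed histone CPM to summed S-phase CPM lay between 2.49 and 5.00. The composition varied less for H2A (14.4% to 18.1% of histone counts) and H4 (19.98% to 25.3%) than for the Hist2 cluster (6.56% to 19.5%).

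The shares were apart between the groups in some comparisons and overlapped in others. In set 1 they were 1.73%, 1.96% and 1.69% in Ezh2 KO and 0.0577%, 1.58% and 1.001% in Cas9 of line 19251. In line 19554 they were 1.31%, 1.68% and 1.34% in Ezh2 KO and 2.26%, 1.38% and 1.84% in Cas9. In line 19568 they were 1.55%, 1.48% and 1.02% in Ezh2 KO and 1.68%, 1.67% and 1.90% in Cas9. Ezh2 KO thus lay above all Cas9 libraries in line 19251, and below them in line 19568. In line 19554, 2 of the 3 Ezh2 KO libraries lay below all Cas9 libraries and the other one among them.

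In set 2 the rescue replicates 1 and 2 held 0.940% and 0.960%, Ezh2 KO 1.59%, 1.21% and 1.30%, Ezh2 OE 1.38%, 1.20% and 1.61%, and Cas9 replicates 2 and 3 held 1.37% and 1.11%. The rescue pair was lower than every other library used in set 2. Of the libraries left out, the one labelled rescue replicate 3 held 1.54% and the one labelled Cas9 replicate 1 held 0.876%. The share averaged 1.13% ± 0.206 (SD, n = 4) in the libraries labelled WT GNP, 1.06% ± 0.164 (n = 8) in Gfi1 OE and 1.21% ± 0.259 (n = 6) in its controls, with overlapping values.

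**Figure D2:**
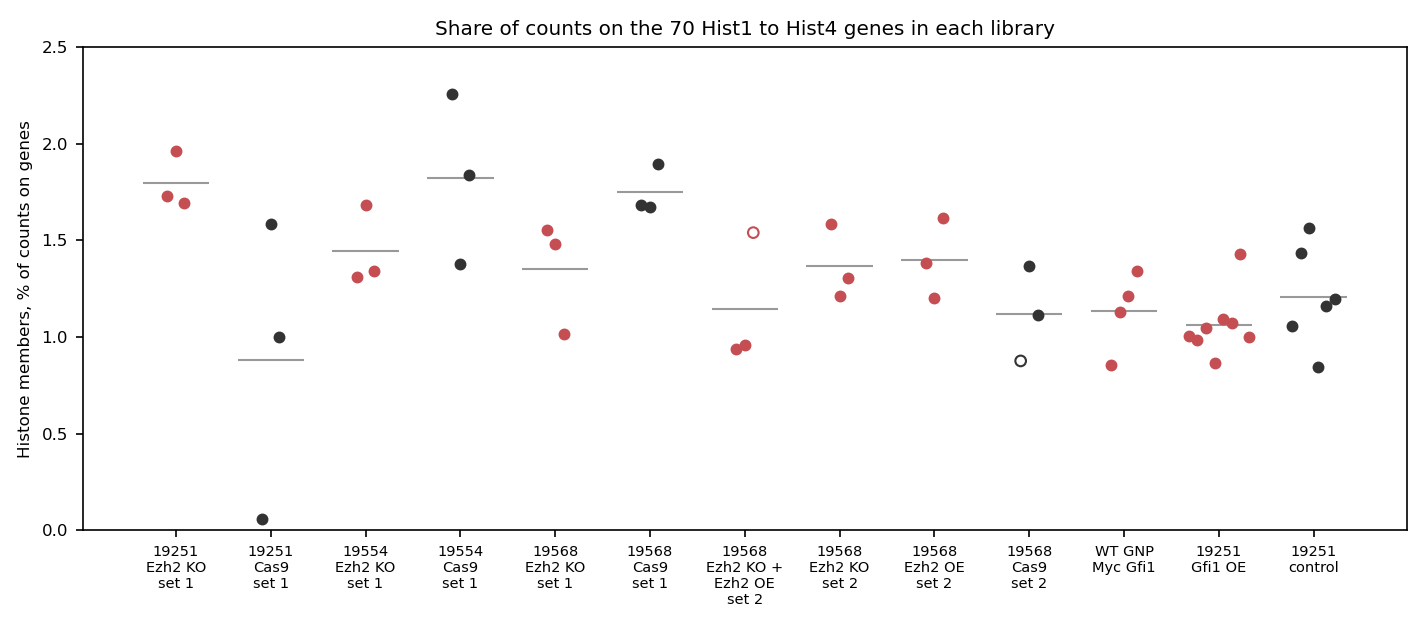
Percent of gene counts on the 70 histone genes, 1 point per library, by group, with the mean of all its points, open ones included, as a grey line. Open circles are the 2 libraries left out of the set 2 fits. The rescue libraries at 0.940% and 0.960% lie below the other filled points of set 2, and 1 Cas9 library of line 19251 is at 0.0577%.

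The comparison of Gfi1 OE with control in line 19251 addressed what added Gfi1 does to the tumors. With Gfi1 OE, Hist2h2be rose and 6 other genes of the Hist2 cluster fell. Outside that cluster 1 member, the pseudogene Hist3h2bb-ps, was called with all libraries. A gene is called here when edgeR's quasi-likelihood test gives a Benjamini-Hochberg adjusted p under 0.05 over all tested genes. In all, 8 of 68 tested members were called, against a background of 24.6% of all genes tested (11.1% higher, 13.5% lower). By cluster these were 7 of 9 Hist2, 1 of 3 Hist3, 0 of 55 Hist1 and 0 of 1 Hist4 genes, and the clusters were not tested against each other. The median log2 change over members was -0.06 and over all genes -0.03.

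Hist2h2be (H2BE) measured 26.3, 26.9, 27.7, 15.1, 5.95, 25.0, 22.4 and 23.8 CPM in Gfi1 OE replicates 1 to 8, against 6.85, 6.64, 10.2, 8.10, 6.58 and 4.58 CPM in controls 1 to 6. All Gfi1 OE libraries except replicate 5 lay above every control. The log2 change was 1.698 (SE 0.270, adjusted p = 0.000403).

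Hist2h2bb, the member with the highest mean level over all libraries, moved the other way. Its lowest, median and highest levels were 152, 359 and 401 CPM in Gfi1 OE, against 407, 667 and 1117 CPM in controls. The groups did not overlap, which held for 1 member in this direction and for 6.34% of all genes. On the log2 scale it fell by 0.90 (SE 0.191, adjusted p = 0.00319).

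The H4 gene of the cluster, Hist2h4, had a lowest, median and highest level of 50.4, 66.1 and 92.6 CPM in Gfi1 OE, against 65.5, 119 and 235 CPM in controls. Most Gfi1 OE libraries were lower than most controls, with some overlap. It fell by 0.84 (SE 0.223, adjusted p = 0.0130). The H3 gene Hist2h3c1 had 51.3, 100.1 and 113 CPM in Gfi1 OE, against 81.7, 147 and 269 CPM in controls, and fell by 0.66 (SE 0.198, adjusted p = 0.0242). The H3 genes Hist2h3b and Hist2h3c2 and the H2A gene Hist2h2aa2 fell by 0.63, 0.62 and 0.51 (adjusted p = 0.0201, 0.0308 and 0.0353). These H3 and H2A genes share sequence with their copies in the cluster.

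The other Hist2 members, Hist2h2ab and Hist2h2ac, both H2A genes, had log2 changes of 0.92 (adjusted p = 0.0860) and -0.27 and were not called. Among the genes that flank the cluster, 2 of 10 were called, both lower. Hist2 without Hist2h2be summed to 996 ± 149 CPM (SD, n = 8; 662 to 1186) in Gfi1 OE and 1773 ± 697 CPM (n = 6; 1053 to 2862) in controls. The controls thus spread more widely than the Gfi1 OE libraries. They also differed among themselves in Hist3h2ba (0.208 to 126 CPM) and Myc (439 to 1454 CPM). The same controls were high in both, as listed under Other observations. The part of this in the calls on Hist2 genes, Hist3h2bb-ps and Myc was not tested. Outside the cluster, the pseudogene Hist3h2bb-ps fell by 2.39 (SE 0.777, adjusted p = 0.0357), with a lowest, median and highest level of 1.86, 2.62 and 28.2 CPM in Gfi1 OE and 4.95, 27.9 and 80.3 CPM in controls.

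None of the linker histone genes was called with all libraries. Hist1h1a had 77.6, 114 and 379 CPM in Gfi1 OE, against 233, 328 and 433 CPM in controls (log2 change -0.89, SE 0.400, adjusted p = 0.121). The highest Gfi1 OE value was replicate 5, the library of low depth. Without it Hist1h1a fell by 1.37 (SE 0.258, adjusted p = 0.00144), and 12 members were called (33.9% of all genes), adding Hist1h1a, Hist1h1t (log2 change -1.13), Hist1h2af (0.50) and Hist1h2al (-0.46). Hist1h1b had 146, 195 and 352 CPM in Gfi1 OE, against 213, 321 and 418 CPM in controls (-0.48, adjusted p = 0.0787). Hist1h1c had 403, 522 and 1539 CPM in Gfi1 OE, against 359, 424 and 621 CPM in controls (0.68), and Hist1h1d had 313, 406 and 989 CPM in Gfi1 OE, against 239, 348 and 533 CPM in controls (0.60). The highest values of both were replicate 5, and without it the log2 changes were 0.23 for Hist1h1c and 0.24 for Hist1h1d, not called. The log2 changes of Hist1h1e and Hist1h1t were 0.02 and -1.02.

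The calls on Hist2h2bb, Hist2h2be and Hist2h4 were made in each of 14 fits that left out 1 library. Only 3 members were called without control replicate 3 or 6, and 5 without Gfi1 OE replicate 4 or 6. Over the 14 fits, 3461 to 5737 of all genes were called, against 4186 with all libraries. Hist2h3b had adjusted p = 0.0518 and 0.0501 without control replicates 3 and 6, and Hist2h3c1 0.0657 and 0.0591. The highest adjusted p over these fits was 0.0811 for Hist2h3c2, 0.0917 for Hist2h2aa2 and 0.0839 for Hist3h2bb-ps. Of the 14 fits, 9 called Hist2h3c2, 7 called Hist2h2aa2 and 5 called Hist3h2bb-ps, whose log2 change ran from -3.53 to -2.01.

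**Figure D3:**
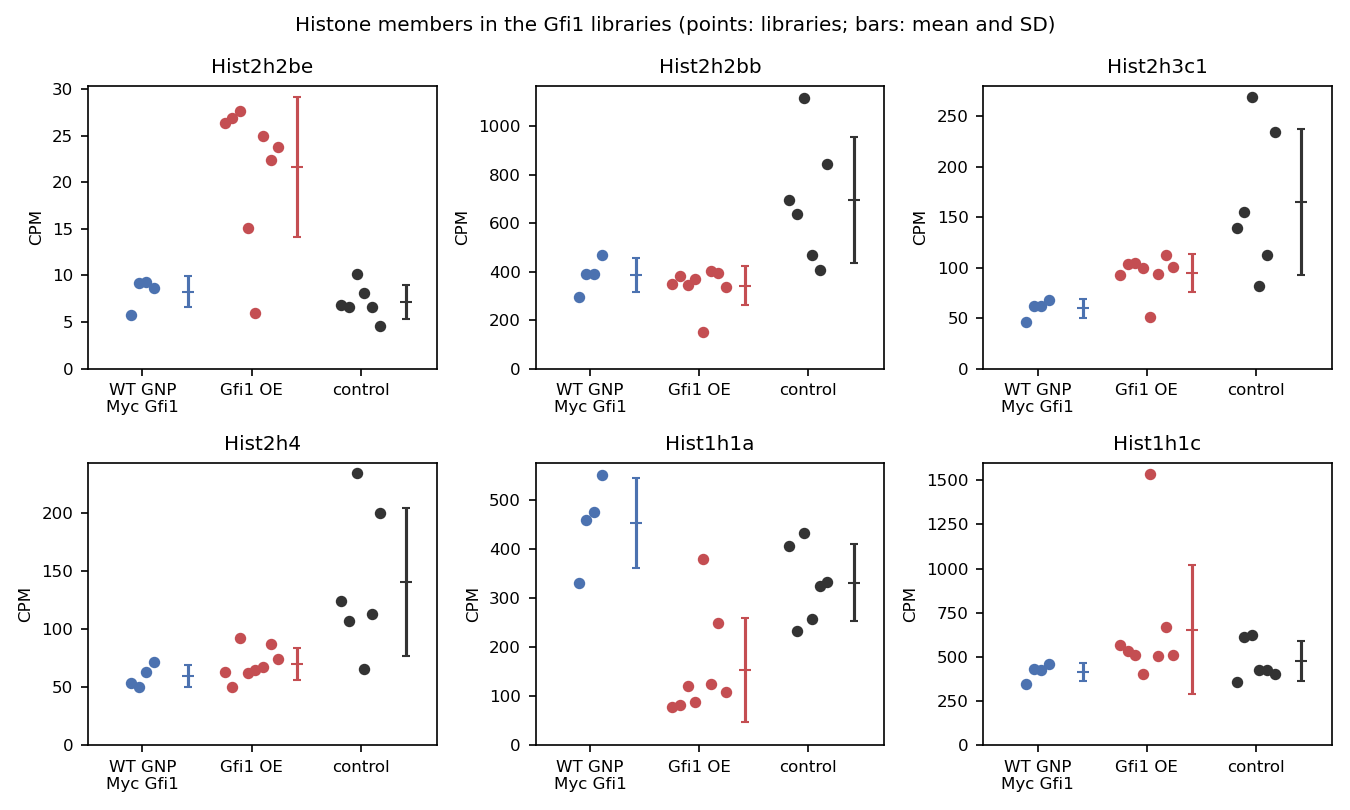
Level in CPM of 6 histone genes in each library labelled WT GNP, of Gfi1 OE and of its controls, with mean and SD. Hist2h2be is at 15.1 CPM or more in all Gfi1 OE libraries except 1, and Hist2h2bb is at 401 CPM or less in all of them and at 407 CPM or more in the controls.

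Genes around the histone genes also differed in this comparison. Of 22 mitosis genes 6 fell, and all 22 had negative log2 changes (median -0.34), led by Kif23 (-0.77), Ccna2 (-0.63), Birc5 (-0.61) and Aurkb (-0.51). Without Gfi1 OE replicate 5, 8 fell and 19 were negative (median -0.27). Their sum was 1602 CPM in replicate 5, 3364 to 4265 CPM in the other 7 Gfi1 OE libraries and 3522 to 4930 CPM in controls. Of 37 S-phase genes 5 rose and 3 fell, led by E2f2 (1.46), Pold1 (1.03), Rfc3 (-0.78) and Gins3 (0.61), and their sum was 3114 ± 429 CPM in Gfi1 OE (3251 ± 196 CPM without replicate 5) and 3272 ± 148 CPM in controls. Of 7 astrocyte markers 3 fell (Aldoc -1.81, Slc1a3 -1.71 and Gfap -1.09), and their sum was 145 to 628 CPM in Gfi1 OE and 575 to 1584 CPM in controls. Without replicate 5, 2 astrocyte markers fell, and the sum was 329 CPM or more. Myc fell by 0.73 (adjusted p = 0.0361). Slbp had a log2 change of 0.15 and was not called. The part of these differences in the histone values was not tested.

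**Figure D4:**
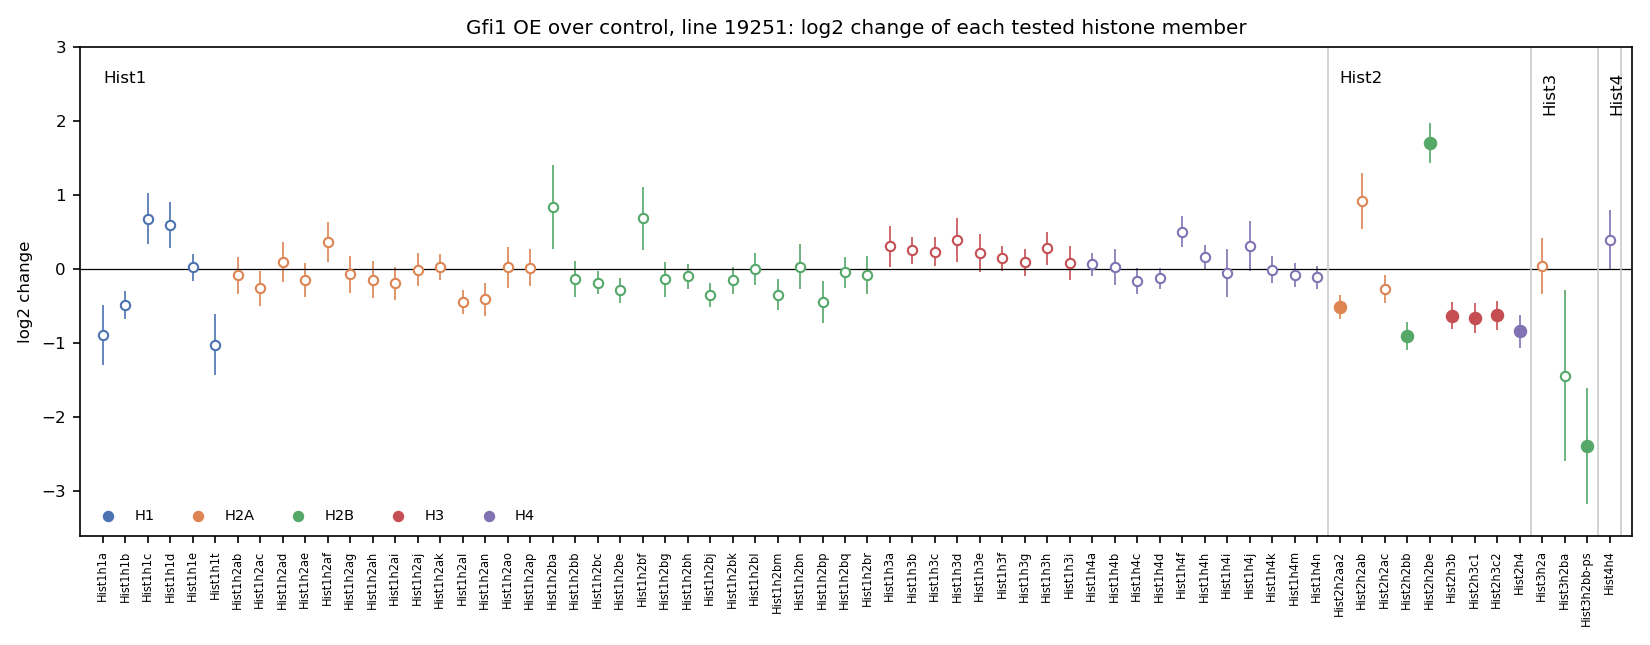
Log2 change with SE of each tested histone gene for Gfi1 OE against control, by cluster, with filled points for called genes. The Hist2 genes range from -0.90 for Hist2h2bb to 1.698 for Hist2h2be, and no point of Hist1 is filled.

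The libraries labelled WT GNP were set against the same Gfi1 OE libraries to compare tumors of different origin. Cell of origin, genotype, the level of Gfi1 RNA and the number in the titles differ together, so these cannot be told apart. So do the title words, TP for Gfi1 OE and tumor for the libraries labelled WT GNP. The titles do not say what TP stands for. Gfi1 RNA was high in Gfi1 OE and nearly absent from the libraries labelled WT GNP, against their label. Relative to Gfi1 OE, 8 of 68 members were called higher, among them Hist1h1a, and 6 lower, among them Hist2h2be, against 48.7% of all genes called (21.9% higher, 26.8% lower). By class these were 6 higher and 1 lower of 19 H2B genes, 3 lower of 12 H3, 2 lower of 18 H2A, 1 higher of 13 H4 and 1 higher of 6 H1 genes. The groups did not overlap for 2 members that were lower (background 16.7%).

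Hist1h1a, the H1.1 gene, measured 329.5, 458, 475 and 551 CPM in the libraries labelled WT GNP, against 77.6, 114 and 379 CPM as lowest, median and highest in Gfi1 OE. All but replicate 1 of the 4 were above every Gfi1 OE library. Its log2 change was 1.43 (SE 0.462, adjusted p = 0.0216), 1.92 without Gfi1 OE replicate 5 (adjusted p = 0.000144), and it was not called without WT GNP replicate 4 (adjusted p = 0.0576). The H2B gene Hist1h2bf measured 62.0, 94.4, 100.5 and 112 CPM, against 19.3, 32.6 and 91.2 CPM in Gfi1 OE. Gfi1 OE replicate 7 alone lay within the range of the libraries labelled WT GNP. Hist1h2bf was higher by 1.18 (SE 0.304, adjusted p = 0.00619), and Hist1h2bg and Hist3h2bb-ps by 0.76 and 1.78 (adjusted p = 0.0338 and 0.0418). Hist1h4a, Hist1h2bh, Hist1h2bc and Hist1h2be were also higher, by 0.44 to 0.71. Of 12 fits that left out 1 library, 2 called Hist3h2bb-ps, with a log2 change from 1.65 to 2.94, 6 called Hist1h2be, 7 each called Hist1h2bg and Hist1h2bc, and 11 called Hist1h2bh.

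Among the members that were lower, Hist2h3c2 measured 54.7, 61.8, 64.3 and 75.4 CPM, against 80.7, 116 and 129 CPM in Gfi1 OE, with no overlap. It fell by 0.86 (SE 0.121, adjusted p = 7.83e-05). Hist1h2al, an annotated pseudogene, measured 28.5, 28.9, 35.7 and 49.8 CPM, against 57.3, 68.0 and 81.9 CPM in Gfi1 OE, also with no overlap, and fell by 1.02 (SE 0.159, adjusted p = 0.000187). Hist2h2be measured 5.75, 9.19, 9.27 and 8.70 CPM, within the range of the line 19251 controls (4.58 to 10.2 CPM), and fell by 1.45 relative to Gfi1 OE (SE 0.295, adjusted p = 0.00138). Hist2h3c1, Hist2h2aa2 and Hist2h3b fell by 0.71, 0.64 and 0.56 (adjusted p = 0.00163, 0.00361 and 0.00341). Hist2h2bb and Hist2h4 had log2 changes of 0.14 and -0.30 and were not called.

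The Hist2 cluster made up 7.47% ± 0.315 of histone counts (SD, n = 4) in the libraries labelled WT GNP, 9.72% ± 1.72 (n = 8) in Gfi1 OE and 14.5% ± 3.87 (n = 6) in the controls. The other H1 genes were not called, with log2 changes of 0.45 for Hist1h1b, -0.79 for Hist1h1c, -0.37 for Hist1h1d, -0.08 for Hist1h1e and 0.01 for Hist1h1t. Without Gfi1 OE replicate 5 these of Hist1h1c and Hist1h1d were -0.33 and 0.01, and Hist1h1c was called (adjusted p = 0.0459). Without Gfi1 OE replicate 5 the count was 13 members higher and 10 lower (65.8% of all genes called), and without WT GNP replicate 4 it was 9 in all. Over the 12 fits that left out 1 library, 6961 to 11221 of all genes were called, against 8413 with all libraries. Hist1h2al, Hist1h2bf, Hist1h4a, Hist2h2aa2, Hist2h2be, Hist2h3b, Hist2h3c1 and Hist2h3c2 were called in each of 12 fits that left out 1 library. Of 37 S-phase genes 11 were higher and 9 lower here, of 22 mitosis genes 3 were higher and 2 lower, and Myc fell by 1.20. Of 7 astrocyte markers 1 was higher and 4 were lower, with a sum of 276 to 376 CPM in these libraries and 145 to 628 CPM in Gfi1 OE (329 CPM or more without replicate 5). Without that replicate 17 S-phase genes were higher and 11 lower, 10 mitosis genes were higher and 2 lower, and 2 astrocyte markers were higher and 5 lower. The part of these differences in the histone values was not tested.

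The rescue asked whether Ezh2 expression undoes changes seen in Ezh2 KO. Ezh2 measured 5037 and 6576 CPM in rescue replicates 1 and 2, against 46.8, 51.4 and 55.7 CPM in Ezh2 KO and 91.9 and 93.5 CPM in Cas9. The rescue group rests on these 2 libraries, and the description of replicate 2 names Ezh2 overexpression alone, while its title names the rescue. Nearly all histone genes measured less in the rescue than in Ezh2 KO. However, none of these differences was called by edgeR with the low-count filter and all 10 libraries of the fit. Of 68 members 66 had a negative log2 change, with a median of -0.49 against 0.00 over all genes, and in 65 both rescue libraries lay below all 3 Ezh2 KO libraries (background 27.7%). None was called by edgeR, against 1.21% of all genes. At an unadjusted p under 0.05, 54 members were lower, against 9.29% of all genes, and DESeq2 called 14 members, all lower (5.99% of all genes called). Without the low-count filter edgeR called 56 of 69 members, all lower (5.63% of all genes). The lowest adjusted p was 0.0588, for Hist1h2bl, and 1 member was called when Ezh2 OE replicate 1 or 3 was left out of the joint fit (4.02% and 2.13% of all genes).

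The classes and clusters were not tested against each other. Median log2 changes were -0.35 for H1, -0.45 for H2A, -0.50 for H2B, -0.49 for H3 and -0.52 for H4 genes, and -0.47 for Hist1, -0.62 for Hist2 and -0.72 for Hist3 genes. All 12 H3 and all 13 H4 genes were separated between the groups.

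Among linker histones, Hist1h1b measured 218 and 206 CPM in the rescue, against 366, 286 and 302 CPM in Ezh2 KO (log2 change -0.53). Hist1h1d measured 264 and 352 CPM, against 494, 416 and 421 CPM (-0.47), and Hist1h1c 329.7 and 398 CPM, against 541, 457 and 478 CPM (-0.38). Hist1h1e measured 489.8 and 499 CPM, against 747, 577 and 608 CPM (-0.32), and Hist1h1a 374 and 365 CPM, against 513, 437 and 485 CPM (-0.31). In each of these 5 genes the rescue libraries were the lowest. The testis gene Hist1h1t stayed below 1 CPM in both groups (-0.20).

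Among core histones, Hist2h2bb measured 463 and 387 CPM in the rescue, against 712, 594 and 639 CPM in Ezh2 KO (-0.55). Hist1h4d measured 341 and 378 CPM, against 636, 482 and 455 CPM, and Hist2h4 65.7 and 52.0 CPM, against 109, 88.3 and 92.1 CPM (-0.66). Hist3h2ba measured 45.4 and 41.7 CPM, against 90.2, 69.2 and 77.1 CPM (-0.80, adjusted p = 0.127). In these genes too the groups did not overlap. The exceptions were Hist2h2be, at 13 and 10.9 CPM in the rescue against 12.6, 9.82 and 12.4 CPM in Ezh2 KO (0.10), and Hist3h2a, at 8.71 and 9.79 CPM against 7.45, 7.55 and 9.98 CPM (0.22). Both are known for polyadenylated RNA, but in 4 of the 6 tested members known for it the rescue libraries were the lowest.

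**Figure D5:**
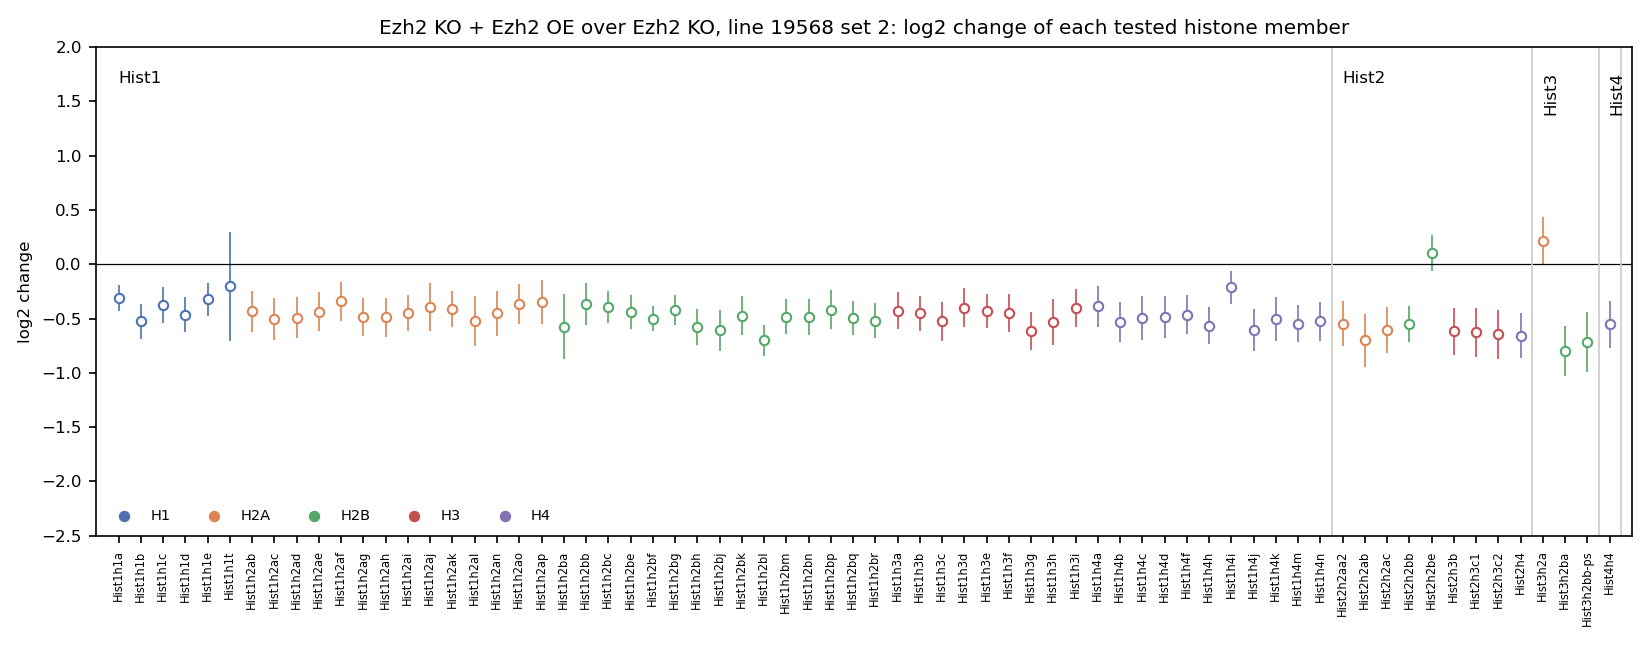
Log2 change with SE of each tested histone gene for the rescue (Ezh2 KO + Ezh2 OE) against Ezh2 KO in line 19568, by cluster. All points except Hist2h2be at 0.10 and Hist3h2a at 0.22 lie below 0, and none is filled, since no member was called.

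Genes of DNA replication and mitosis were lower in the same libraries. The 37 S-phase genes summed to 3135 and 3060 CPM in the rescue and 3983, 3753 and 3747 CPM in Ezh2 KO, and 36 of them had negative log2 changes (median -0.29, none called). Of 22 mitosis genes 21 were negative (median -0.25, none called), with sums of 3776 and 3540 CPM in the rescue and 4516, 4225 and 4270 CPM in Ezh2 KO. The ratio of histone to S-phase CPM was 3.00 and 3.14 in the rescue and 3.98, 3.23 and 3.48 in Ezh2 KO. Slbp had a log2 change of -0.06. Markers of some host cells were higher in the rescue, with the endothelial Cdh5 called at 1.03. Positive were 8 of 8 microglia markers (median 0.66), 7 of 7 endothelial (median 0.44) and 6 of 6 red blood cell markers (median 0.56). Their sums were 158 and 183 CPM in the rescue and 65.1, 107 and 156 CPM in Ezh2 KO for microglia, 133 and 146 CPM in the rescue and 79.8, 100.5 and 116 CPM in Ezh2 KO for endothelium, and 209 and 240 CPM in the rescue and 72.6, 183 and 225 CPM in Ezh2 KO for red blood cells. Of 7 astrocyte markers 6 were positive (median 0.11). Cortical neuron and oligodendrocyte markers went the other way, with 7 of 8 negative in each list (medians -0.91 and -0.28). The part of replication and of host cells in the histone values was not tested. With all 12 libraries as labelled the median over members was -0.22 and 0 members were called.

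Ezh2 KO and Ezh2 OE were also set against Cas9 replicates 2 and 3 in set 2, and these comparisons share the Cas9 libraries. In Ezh2 KO the H2B gene Hist3h2ba rose, with 90.2, 69.2 and 77.1 CPM in Ezh2 KO against 43.0 and 29.8 CPM in Cas9. The groups did not overlap, and the log2 change was 1.04 (SE 0.232, adjusted p = 0.0265). It was the only call among 68 members, against 9.1% of all genes (5.88% higher). The call was lost without any 1 library of either group, at adjusted p of 0.0962 and 0.271 without Cas9 replicates 2 and 3 and of 0.0702, 0.0531 and 0.0646 without Ezh2 KO replicates 1, 2 and 3. It was also lost with a replicate block (adjusted p = 0.0851). In set 1 of the same line Hist3h2ba measured 85.7, 90.04 and 55.5 CPM in Ezh2 KO and 69.9, 46.8 and 63.4 CPM in Cas9, with overlap (log2 change 0.35, not called).

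The other members gave no call in Ezh2 KO of set 2. Their median with Hist3h2ba was 0.10, and the H1 genes lay between -0.15 and 0.08. In 10 members all Ezh2 KO libraries lay above both Cas9 libraries (background 32.7%). Ezh2 itself fell by 0.95 (adjusted p = 0.00416), and Slbp had a log2 change of -0.30 that was not called. Called genes of the other lists were the replacement histone H2afy2 (macroH2A2, 0.86) and the histone importer Ipo4 (0.56). Others were the mitosis genes Ccnb2 (-1.18) and Nusap1 (-0.52) and the S-phase genes E2f2 (-0.83) and Ccne1 (0.75). The endothelial Cdh5 (0.86) and the microglial Tmem119 (1.97) were also called. Tmem119 was the only positive of 8 microglia markers (median -0.59), while 6 of 7 endothelial markers were positive (median 0.42). In Ezh2 OE, with Ezh2 at 2526, 1804 and 2100.0 CPM, 0 of 68 members were called by edgeR, 0 at an unadjusted p under 0.05 (2.82% of all genes) and 0 by DESeq2. Of all genes 0.00566% were called, which was Ezh2 alone. The median over members was 0.19, and 63 were positive, with 4 above all Cas9 libraries (background 8.93%).

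Over the 3 lines of set 1, Ezh2 KO against Cas9 gave no call among 68 members by edgeR or DESeq2, against 0.413% of all genes by edgeR. At an unadjusted p under 0.05 (8.06% of all genes) there was 1 member, Hist3h2a (log2 change 0.72, SE 0.294, unadjusted p = 0.0266). The median over members was 0.09 with 52 positive, and without Cas9 replicate 1 of line 19251 it was -0.14 with 12 positive, again with 0 called. In that fit 6 members had an unadjusted p under 0.05, 1 higher and 5 lower, against 2287 of 16656 genes. The S-phase genes had a median of 0.12 with 32 of 37 positive, and of -0.07 with 11 positive without that library. With all libraries, the H1 genes lay between -0.16 (Hist1h1t) and 0.37 (Hist1h1d).

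The median log2 change over members differed in sign between the lines, but no member was called when the difference was tested (below). In line 19251 all 68 members were positive (median 0.99), and in 40 all Ezh2 KO libraries lay above all Cas9 libraries (background 9.52%). Of these 68, 0 were called (0.259% of all genes), with 3 at an unadjusted p under 0.05 (17% of all genes). Without Cas9 replicate 1 the median was 0.44 with 61 positive, and 1 member was called (0.414% of all genes). This was the H2A gene Hist1h2af, at 103, 164 and 94.3 CPM in Ezh2 KO against 54.99 and 51.03 CPM in Cas9 replicates 2 and 3 (1.11, SE 0.219, adjusted p = 0.0439). With all libraries 36 of 37 S-phase genes (median 0.54) and 22 of 22 mitosis genes (median 0.63) were positive, and the medians of cortical neuron and astrocyte markers were -3.13 and -1.65. Without Cas9 replicate 1 these medians were -0.03, 0.05, 0.84 and 0.15, and 8 of 8 oligodendrocyte markers were positive (median 1.64). None of these genes was called with or without it.

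In lines 19554 and 19568, by contrast, 62 members each were negative, with medians of -0.36 and -0.38. In line 19554, 0 members were called (0.481% of all genes), with 1 at an unadjusted p under 0.05 (9.32%). DESeq2 called 1 member in this line, among 556 genes in all. There 1 member lay below all Cas9 libraries (background 6.96%) and 1 above (7.95%). There 12 of 37 S-phase genes were positive (median -0.15) and 6 of 6 red blood cell markers (median 1.49), none called. In line 19568, 0 were called (0.027% of all genes) and 0 had an unadjusted p under 0.05 (3.13%), but in 32 all Ezh2 KO libraries lay below all Cas9 libraries (background 7.91%). There the S-phase genes had a median of -0.04 and the mitosis genes of -0.21, with 0 of 22 positive. Of 8 oligodendrocyte markers 0 were positive (median -1.44, none called), with sums of 215, 566 and 173 CPM in Ezh2 KO and 497, 1820 and 291 CPM in Cas9. The part of these other genes in the histone values of the lines was not tested. The 6 libraries of line 19568 alone gave 0 called members (1.08% of all genes) and 22 that were lower at an unadjusted p under 0.05 (4.45%).

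The difference between lines was itself tested in the set 1 fit. It gave 0 of 68 members called (0.0162% of all genes), 0 at an unadjusted p under 0.05 (9.71%), 0 by DESeq2, and a lowest adjusted p of 0.582. The medians of line 19568 had opposite signs in the sets, -0.38 in set 1 and 0.10 in set 2, in fits with no library in common, and the sets were not tested against each other.

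The Cas9 libraries of set 1 allow the lines to be compared at baseline. Line and the number in the titles differ together, so these cannot be told apart. With all 9 libraries no member was called between line 19568 and the other lines (4.25% of all genes called). At an unadjusted p under 0.05 there were 6 members (17.1% of all genes), and DESeq2 called 1 member among 1823 genes in all. Between lines 19554 and 19251 there was also no call (0.292% of all genes), with 10 members at an unadjusted p under 0.05 (27.4%) and 0 by DESeq2. Both results depended on single Cas9 libraries, replicate 1 of line 19251 among them. Without Cas9 replicate 2 of line 19554, 1 member was called for line 19568 (3.46% of all genes). Without replicate 1 of line 19251, 9 members were called for line 19568 against the others, 7 higher and 2 lower (14.7% of all genes).

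The H2B gene Hist1h2bf measured 127, 131 and 163 CPM in line 19568, against 72.9, 98.2 and 104 CPM in line 19554 and 0.681, 47.0 and 31.2 CPM in line 19251. The lines did not overlap, in the order 19568, 19554, 19251. Without replicate 1 it was higher by 1.25 in line 19568 (SE 0.182, adjusted p = 0.000552). The H2A gene Hist1h2af measured 173, 151 and 161 CPM in line 19568, against 96.9, 84.1 and 109.8 CPM in line 19554 and 1.17, 54.99 and 51.03 CPM in line 19251. It showed the same order, and was higher by 1.19 (SE 0.167, adjusted p = 0.000433). Hist1h3e, Hist1h2ad, Hist1h3d, Hist1h2ae and Hist1h4f were higher by 0.51 to 0.73. Hist1h2al fell by 1.22 (adjusted p = 0.0134), at 57.3, 48.6 and 65.0 CPM in line 19568 against 163, 90.8 and 141 CPM in line 19554 and 179 and 95.04 CPM in line 19251 replicates 2 and 3. Hist1h1t, below 1 CPM on average, fell by 2.56 (adjusted p = 0.0380).

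Between lines 19554 and 19251, 3 members were called without replicate 1 (1.05% of all genes), all higher in line 19554: Hist1h2bf (1.28, adjusted p = 0.0313), Hist1h3d (1.06, adjusted p = 0.0475) and Hist1h2ad (1.09, adjusted p = 0.0496). Without Cas9 replicate 2 of line 19251 there were 8, against 17.8% of all genes. Hist3h2ba in Cas9 measured 69.9, 46.8 and 63.4 CPM in line 19568, 1.07, 12.6 and 0.175 CPM in line 19554 and 9.19, 30.2 and 18.8 CPM in line 19251. Line 19568 lay above both other lines, without a call.

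Other genes differed between the lines as well. In line 19568 against the others all 8 oligodendrocyte markers were positive (median 2.57 with all libraries, none called), and without Cas9 replicate 1 of line 19251 the median was 3.78 with 7 called. S-phase genes had a median of 0.19 there, and of -0.08 without that library. Between lines 19554 and 19251 all 37 S-phase genes were positive (median 0.82) and all 8 oligodendrocyte markers negative (median -3.64), none called. Without replicate 1 of line 19251 these medians were 0.33, with 33 positive, and -1.37, with 0 positive. Oligodendrocyte markers in Cas9 summed to 497, 1820 and 291 CPM in line 19568, 100.3, 57.0 and 26.7 CPM in line 19554 and 1248, 149 and 77.5 CPM in line 19251. The part of these genes in the histone values was not tested.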

How the data were processed

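Total RNA, extracted with Trizol from tumorsphere cells and tumor pieces per the labels, was sequenced as stranded paired-end libraries. The authors deposited counts per gene symbol as whole numbers, with 5 lines of unassigned reads per file that were kept out of library sizes. CASAVA 1.7, STAR, BWA, HTSeq, limma, R 3.2.3 and genome build mm9 are named, per the submitters' processing notes. The role of each tool, the annotation and the strand setting are not given in the sources used here, so overlapping and antisense genes cannot be told apart. The line of reads aligned to several places holds 0 in each file, so how reads of identical histone copies were treated is not shown. Between 2.70% and 10.9% of reads were unaligned in 46 libraries. Reads carry no molecular identifiers.

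The members, gene lists and tests were chosen with earlier results of these data known. Members were all symbols beginning with Hist1 to Hist4. Counts were tested with edgeR 4.0.16 in R 4.3.3 (TMM scaling, filterByExpr, quasi-likelihood F-test, Benjamini-Hochberg adjustment at 0.05 over all tested genes), and log2 changes with SE come from these fits. CPM are scaled to the library total without TMM, so that a log2 change can differ from the ratio of mean CPM. Set 1 was fitted with a term for line and again with 6 group means. Set 2 was fitted with 4 group means over 10 libraries, and each Gfi1 comparison was fitted on its own groups. Hist1h2aa and Hist2h2aa1 did not pass the low-count filter in any comparison. The fits were tested on simulated counts.

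Named were the 8 members with the highest mean CPM, called members (all where there were up to 6 in a direction, otherwise the 4 with the largest change), members known for polyadenylated or testis RNA, all H1 genes, Slbp, Ezh2, Gfi1, Myc and up to 4 called genes of each other list. The other members that are named or given with values, such as the widely varying ones, were chosen after their values were seen.

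Stem-loops and 100-base words came from GENCODE vM21 transcripts, promoters from RefSeq (GRCm38.p6), with 70 and 69 members matched. A list of 25 RNAs without poly(A) tails was void, since 1 of its genes is in the files.

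Replicate numbers were taken to pair samples where every same-numbered pair had a correlation of deviations over 0.1 across genes. This held in line 19568 of set 1 alone (0.172, 0.399 and 0.139), where the block left 0 members called. The correlations were -0.194 to -0.0323 in line 19251, 0.0630 to 0.254 in line 19554 and -0.587 to 0.423 in set 2. Alternatives were RLE size factors, scaling without the histone members, a filter of at least 1 CPM, no filter, DESeq2 1.42.0, limma-voom (limma 3.58.1), a replicate block, the 6 libraries of a line alone, all 12 set 2 libraries as labelled, and each library left out in turn. Figures were drawn with matplotlib 3.10.9.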

Additional observations from a re-analysis of the deposited data

Results flagged for a closer look

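In groups of 4 to 10 libraries, 90 values were tested for 1 library far from the others of its group by Dixon's criterion, and 19 met it. For a single value chance gives about 1 in 20. These values are not independent, since they share libraries, and some members were included because they were called in these data. The number that met the criterion is therefore no test against chance.

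Gfi1 OE replicate 5, the library with 71.6% unaligned reads, stood apart in 8 values. It held 1539 CPM of Hist1h1c (403 to 671 in the other 7), 989 CPM of Hist1h1d (313 to 542), 321 CPM of Hist4h4 (83.3 to 106) and 15.3 CPM of the testis gene Hist1h2ba (1.85 to 2.92). Slbp was at 119 CPM there (59.3 to 76.7). It was low in Hist2h2bb at 152 CPM (336 to 401), Hist2h2aa2 at 106 CPM (156 to 201) and Hist2h3c1 at 51.3 CPM (92.5 to 113).

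Gfi1 OE replicate 7 was high in 8 values. Histone genes made up 1.43% of its counts (0.863% to 1.09% in the others). It held 352 CPM of Hist1h1b (146 to 218), 180.1 CPM of Hist1h2bc (125 to 142), 91.2 CPM of Hist1h2bf (19.4 to 40.0), 138 CPM of Hist1h2bh (82.6 to 109) and 261 CPM of Hist1h4a (118 to 171). The Hist3 genes Hist3h2ba and Hist3h2bb-ps were at 75.5 CPM (2.16 to 20.4) and 28.2 CPM (1.86 to 4.15).

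In the libraries labelled WT GNP, replicate 1 was low in Hist1h2bb at 216 CPM (347 to 357) and Hist2h2be at 5.75 CPM (8.70 to 9.27). Replicate 4 was high in Hist3h2a at 13.8 CPM (11.6 to 11.7).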

How the results depend on the processing

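Called members were followed through 430 alternative values for 23 calls. The call was kept in 366 and lost in 64, the direction was never reversed, and 11 calls were kept in every alternative. Counts of called genes moved with the tool. DESeq2 called 289 genes in set 1 (edgeR 68), 842 in line 19251 (48), 556 in line 19554 with 1 member (89), 76 in line 19568 (5), 269 for the difference between lines (3), 1823 with 1 member for Cas9 of line 19568 against the others (786), 2766 for Cas9 of line 19554 against 19251 (54) and 1058 with 14 members for the rescue (213). With limma-voom the counts were 131 in set 1, 93, 176 and 44 in lines 19251, 19554 and 19568, 6 for the difference between lines and 12 for Cas9 of line 19554 against 19251, and 1 member was called for Cas9 of line 19568 against the others. Without a low-count filter the counts were 104 in set 1, 0 in line 19568, 35 for Cas9 of line 19554 against 19251, 2984 with 3 members for Ezh2 KO in set 2 (1608), 146 for Ezh2 OE (1) and 1761 with 56 members for the rescue. A minimum of 1 CPM gave 40 in set 1 and 101 for Cas9 of line 19554 against 19251. With a replicate block the counts were 45 in set 1, 3, 17 and 0 in lines 19251, 19554 and 19568, 1 for the difference, 889 with 0 members for Ezh2 KO in set 2 and 79 for the rescue, and the block changed no other call on a member. Each line alone gave 0, 29 and 179. All 12 set 2 libraries as labelled gave 171 for Ezh2 KO, 0 for Ezh2 OE and 69 for the rescue. The histone share in Ezh2 KO of line 19251 averaged 1.80%, and 1.65% on TMM-scaled library sizes. The causes of these shifts were not tested.

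With each library left out, called genes ranged from 51 to 215 in set 1, 26 to 375, 29 to 400 and 0 to 20 in its lines, 2 to 20 for the difference, 398 to 2801 and 2 to 3427 for the Cas9 comparisons, 238 to 2347 for Ezh2 KO in set 2, 1 to 1 for Ezh2 OE, 21 to 703 for the rescue, 3461 to 5737 for Gfi1 OE and 6961 to 11221 for the libraries labelled WT GNP. Called members ranged from 0 to 0 in set 1, lines 19554 and 19568, the difference and Ezh2 OE, 0 to 1 in line 19251, Ezh2 KO of set 2 and the rescue, 0 to 9 and 0 to 8 for the Cas9 comparisons, 3 to 12 for Gfi1 OE and 9 to 23 for the libraries labelled WT GNP. For the Gfi1 comparisons and between lines, no paired analysis was possible because the Gfi1 OE titles carry 1 shared number and a replicate number lies within a line.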

Other observations

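Of 11 replacement histones, which are made outside S phase too, 1 rose and 2 fell with Gfi1 OE, against 24.6% of all genes called. The replacement H2A gene H2afj (H2A.J) rose by 0.89 on the log2 scale (adjusted p = 0.000786 by edgeR's quasi-likelihood test), at 54.2 to 91.9 CPM in Gfi1 OE and 36.3 to 49.9 CPM in controls, with no overlap. The linker histone H1f0 fell by 1.16 and the centromeric H3 gene Cenpa by 0.78. Among histone chaperones Asf1b, Rbbp7, Nasp and Rbbp4 fell by 0.83, 0.54, 0.53 and 0.45, and these were 4 of 17 tested, against the same 24.6%. The cap-binding gene Ncbp1 fell by 0.79 and was the only call among 17 genes of histone RNA processing. These shares lie near the background or below it. In the libraries labelled WT GNP, relative to Gfi1 OE, 4 of 11 replacement histones and 7 of 17 chaperones were called, against 48.7% of all genes. H2afj fell by 1.698, and H2afy2, Nasp, Asf1b and H3f3b were higher by 1.77, 1.09, 0.90 and 0.78.

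In the 6 controls of line 19251 Hist3h2ba and Hist3h2bb-ps were at separate levels, a pattern chosen after the values were seen and not tested. Hist3h2ba measured 78.5, 126 and 86.0 CPM in replicates 2, 3 and 6 and 1.71, 0.334 and 0.208 CPM in replicates 1, 4 and 5. Hist3h2bb-ps measured 48.6, 80.3 and 67.8 CPM in replicates 2, 3 and 6 and 6.33, 7.13 and 4.95 CPM in replicates 1, 4 and 5. In the same order of libraries Slbp measured 51.6, 51.8 and 53.9 CPM and 89.0, 69.7 and 99.8 CPM, and Myc 1107, 1329 and 1454 CPM and 560.4, 893 and 439 CPM.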
